A study of Homo sapiens with 2 samples.

Results

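The genes described here encode 6 ligands of the epidermal growth factor receptor (AREG, EREG, HBEGF, TGFA, BTC and EPGN), 3 receptors of its family (EGFR, ERBB2 and ERBB3) and the receptor inhibitor ERRFI1. They are 10 of the 24124 genes in a table of 134092 transcripts, and they were found by gene name, with 78 transcripts listed between them. RNA was sequenced from SAS cells, a human line derived from an oral cancer, and each group had 1 library. The ASC cells stably overexpressed ASC from the plasmid pLKO.AS2_ASC, and the control cells carried pLKO.AS2. The culture medium of both held G418 and puromycin, so this selection was shared. ASC is the inflammasome adaptor encoded by PYCARD, and the labels do not say whether either line was 1 clone or a pool of cells.

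The EGFR ligands are made as membrane-anchored precursors. Metalloproteinases of the ADAM family cut them at the cell surface, and the freed growth factor binds EGFR on the same or a nearby cell. Ligand binding brings receptors together in pairs and switches on the RAS to ERK and PI3K to AKT cascades. ERBB2 has no known ligand of its own and acts as the partner of other receptors. ERBB3 has a weak kinase and binds neuregulins. In squamous cancers of the mouth EGFR is commonly abundant, and several of its ligands are themselves induced by EGFR signalling.

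The ASC library held 31426491 listed reads and the control library 31289581. PYCARD stood at 266.5 RPKM with ASC and 1.36 RPKM with the control vector, which fits both labels. RPKM counts reads per kilobase of transcript, scaled to library depth, and a gene value is the sum over its transcripts. Log2 ratios are ASC over control after 1 was added to each RPKM, so differences of weakly expressed genes come out too small. A gene was compared if 1 library or both reached 1 RPKM. There were no replicates, so no difference has a test or a p-value. A 95% interval is given for the ratio of reads scaled to the listed reads of each library. It covers counting error only, and not the spread between cultures or the error of assigning reads to similar transcripts. All 8 epithelial markers were compared, with a summed level of 3621 RPKM with ASC and 2860.4 RPKM with the control vector. Their log2 ratios ran from -0.44 for KRT5 to 0.57 for KRT8, 6 above 0 and 2 below, with EPCAM at 0.00. None of 6 fibroblast markers reached 1 RPKM. Of 5 blood cell markers 1 did, CD68, at 24.1 RPKM with ASC and 25.9 RPKM with the control vector. Of 4 endothelial markers 1 did, CDH5, at 2.23 RPKM with ASC and 1.23 RPKM with the control vector. The part of these marker differences in the results was not tested.

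Ligand genes were higher with ASC and receptor genes were close to equal. Of the 10 genes, 8 were compared, and BTC and EPGN stayed below 1 RPKM in both libraries. AREG was the only one at least 2-fold higher, 1 of 8 compared, where 0.617% of all 12471 compared genes were. None was 2-fold lower, where 0.265% of all genes were. At 1.5-fold, 4 of the 8 were higher (AREG, EREG, ERRFI1 and HBEGF) against 2.38% of all genes, and none was lower against 1.81%. Above 0 lay 6 of the 8, where 52% of all genes did. Their median log2 ratio was 0.53, beside 0.01 over all genes compared, and the central 90% of all genes ran from -0.41 to 0.42. The members were chosen with earlier results of these data known, so setting them beside all genes describes them and tests nothing. These are descriptions of 2 libraries. In bulk RNA a change in the number of expressing cells and one in RNA per cell cannot be told apart.

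**Figure D1:**
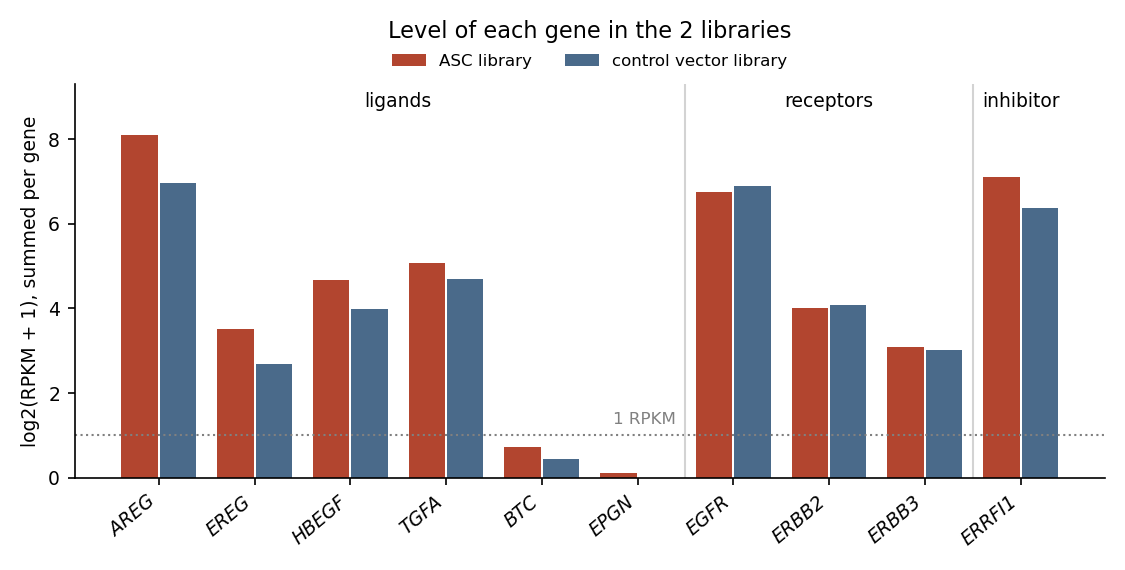
Level of each gene as log2(RPKM + 1), summed over its transcripts, with ASC (left bar) and with the control vector (right bar), 1 library each. AREG, EREG, HBEGF, TGFA and ERRFI1 stand higher with ASC, while EGFR, ERBB2 and ERBB3 differ little and BTC and EPGN lie under the dotted line at 1 RPKM.

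AREG (ENSG00000109321.10) encodes amphiregulin, a ligand that binds EGFR alone and with lower affinity than EGF itself. It stood at 274.2 RPKM with ASC and 123.6 RPKM with the control vector, from 12063.7 and 5444.1 estimated reads. The log2 ratio was 1.14, and the ratio of reads was 2.21-fold (95% interval 2.14 to 2.28). It ranked 56 from the highest of the compared genes. In both libraries AREG was the most abundant of the ligand genes per length. It held 80.1% of the summed RPKM of the 6 ligand genes with ASC and 73.1% with the control vector. That sum was 342.4 RPKM with ASC and 169.04 RPKM with the control vector, 2.03-fold higher with ASC.

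EREG (ENSG00000124882.3, plus strand, chr4:74365143-74388751 in hg38) encodes epiregulin, a ligand that activates EGFR and ERBB4. It stood at 10.4 RPKM with ASC and 5.42 RPKM with the control vector. Its reads numbered 1601 and 869, a 1.83-fold difference (95% interval 1.69 to 1.99), and its log2 ratio was 0.83. HBEGF (ENSG00000113070.7, minus strand, chr5:140332843-140346631) encodes the heparin-binding ligand that also serves as the receptor of diphtheria toxin. It stood at 24.3 RPKM with ASC and 14.8 RPKM with the control vector, a 1.68-fold difference in reads (95% interval 1.56 to 1.80). The log2 ratio of HBEGF was 0.68. Both lay short of 2-fold, with 1.03% of compared genes above EREG and 1.71% above HBEGF.

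TGFA (ENSG00000163235.15, minus strand, chr2:70447280-70554193) encodes transforming growth factor alpha, a ligand first known from transformed cells. It stood at 32.8 RPKM with ASC and 24.8 RPKM with the control vector, from 4569 and 3486 reads, with a log2 ratio of 0.39. The ratio of reads was 1.30-fold (95% interval 1.25 to 1.36), the smallest among the 4 compared ligand genes. TGFA lies on a stretch of chromosome 2 where the 50 nearest compared genes had a median log2 ratio of -0.25, and relative to them its ratio was 0.64. The share of TGFA in the summed ligand RPKM was 9.58% with ASC and 14.7% with the control vector.

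The other 2 ligands were barely detected. BTC (ENSG00000174808.11, minus strand, chr4:74744759-74794686) encodes betacellulin and stood at 0.662 RPKM with ASC and 0.367 RPKM with the control vector, with 52 and 37 reads. The 95% interval of its ratio of reads, 0.901 to 2.19, includes equality. EPGN (ENSG00000182585.9, plus strand, chr4:74308473-74315307) encodes epigen and had 3 reads with ASC and 0 with the control vector. Both are at or under the 3 reads that a count of 0 allows, so no fold is given.

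**Figure D2:**
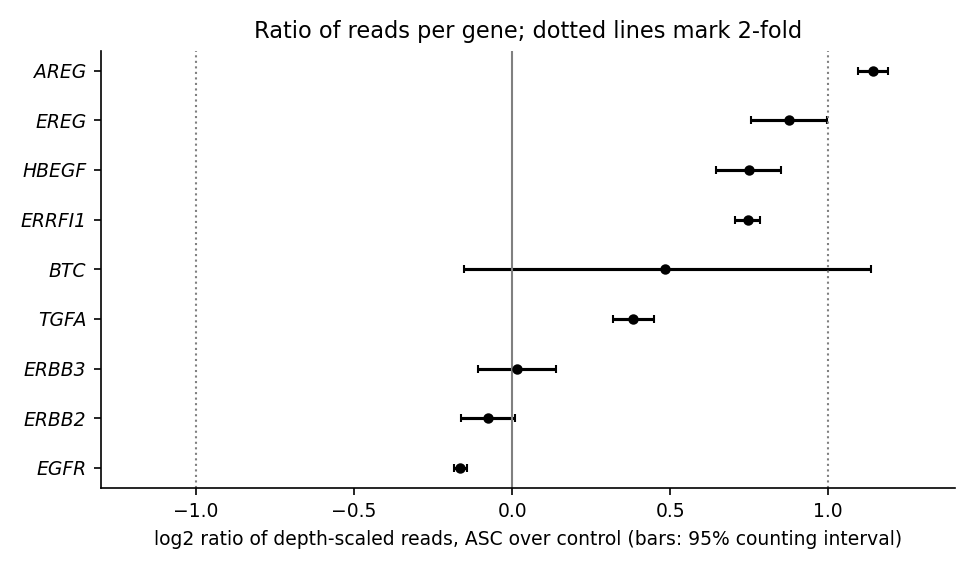
Log2 ratio of estimated reads scaled to library depth, ASC over control, for the 9 genes with reads in both libraries. Points are the ratios and bars the exact 95% intervals of counting error. AREG alone lies past the dotted line of 2-fold, at 1.14, and the intervals of BTC, ERBB3 and ERBB2 include 0.

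To show what lies directly before the genes with the highest ratios, the 250 bases upstream of the RefSeq start (GRCh38.p14) are printed for AREG, EREG, HBEGF and ERRFI1, and for EGFR, whose level was lower. RefSeq starts can differ from those of the listed transcripts. Each is written 5′ to 3′ on the strand of its gene. Capitals mark matches, on either strand, to the cAMP response element TGACGTCA, the AP-1 element TGANTCA, the TATA box TATAAA and the GC box GGGCGG.
AREG chr4:74444886-74445135 (+): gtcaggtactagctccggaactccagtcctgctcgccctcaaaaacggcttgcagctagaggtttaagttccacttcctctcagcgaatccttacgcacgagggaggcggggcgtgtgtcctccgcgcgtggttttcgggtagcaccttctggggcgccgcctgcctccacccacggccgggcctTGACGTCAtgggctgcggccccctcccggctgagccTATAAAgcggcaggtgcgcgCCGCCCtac
EREG chr4:74364895-74365144 (+): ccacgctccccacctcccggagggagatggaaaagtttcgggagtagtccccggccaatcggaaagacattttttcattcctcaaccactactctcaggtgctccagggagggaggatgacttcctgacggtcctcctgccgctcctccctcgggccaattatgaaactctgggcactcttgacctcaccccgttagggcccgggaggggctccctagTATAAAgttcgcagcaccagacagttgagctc
HBEGF chr5:140346604-140346853 (-): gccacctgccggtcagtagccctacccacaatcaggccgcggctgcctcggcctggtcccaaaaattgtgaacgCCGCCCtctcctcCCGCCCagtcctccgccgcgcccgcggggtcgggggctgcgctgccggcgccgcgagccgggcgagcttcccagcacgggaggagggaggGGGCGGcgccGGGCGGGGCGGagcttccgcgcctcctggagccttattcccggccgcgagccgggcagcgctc
ERRFI1 chr1:8026310-8026559 (-): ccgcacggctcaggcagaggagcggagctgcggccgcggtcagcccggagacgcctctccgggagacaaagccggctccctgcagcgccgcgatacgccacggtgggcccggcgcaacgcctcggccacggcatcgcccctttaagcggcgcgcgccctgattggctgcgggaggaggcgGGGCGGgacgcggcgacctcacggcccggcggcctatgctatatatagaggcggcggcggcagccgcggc
EGFR chr7:55018767-55019016 (+): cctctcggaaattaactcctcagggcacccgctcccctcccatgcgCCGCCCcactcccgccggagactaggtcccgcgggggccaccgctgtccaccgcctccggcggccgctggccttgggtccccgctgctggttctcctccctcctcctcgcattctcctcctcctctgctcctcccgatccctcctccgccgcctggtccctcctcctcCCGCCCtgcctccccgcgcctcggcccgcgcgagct

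AREG was the only one of these 5 windows with the cAMP response element, which begins 65 bases before the start. Of 35116 windows of the same length in the RefSeq table, 1.65% hold those letters. The exact letters TATAAA were in the AREG window, 29 bases before the start, and in that of EREG, 32 bases before it. The other 3 windows shown lacked them, and 10.7% of all windows hold them. Similar letters, such as the tatatata in the ERRFI1 window, were not sought and are not marked. The AP-1 letters were in none of the 5, where 6.57% of all windows hold them. GC box matches numbered 5 for HBEGF, the last pair of which overlap, 2 for EGFR, 1 each for AREG and ERRFI1 and 0 for EREG, and 42.6% of all windows have at least 1. A match describes letters and does not show that a factor binds there.

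Most reads of each ligand gene were assigned to 1 coding transcript, and the ratio of that transcript followed the gene. AREG lies on the plus strand of chromosome 4, from 74445134 to 74455009 (hg38). Its transcript ENST00000395748.7, of 6 exons, stood at 270.4 RPKM with ASC and 121.1 RPKM with the control vector, and held 99.1% and 98.7% of the AREG reads. The AREG transcript ENST00000511560.1 is annotated as retaining an intron and stood at 3.40 RPKM with ASC and 2.10 RPKM with the control vector, with 92.4 and 57.4 reads. Its log2 ratio of reads, 0.68, had an interval of 0.19 to 1.19 that overlaps that of the coding transcript. The main EREG transcript, ENST00000244869.2, stood at 9.50 RPKM with ASC and 5.19 RPKM with the control vector. The main HBEGF transcript, ENST00000230990.6, stood at 23.5 RPKM with ASC and 13.5 RPKM with the control vector. TGFA had a pair of compared transcripts that code for proteins of nearly equal length. ENST00000295400.10 stood at 28.5 RPKM with ASC and 21.8 RPKM with the control vector, and ENST00000418333.6 at 3.72 and 2.60 RPKM with ASC and with the control vector, with log2 ratios of 0.38 and 0.39.

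Among low transcripts annotated as retaining an intron, those of EREG and HBEGF pointed in opposite directions, and they are named after their values were seen. ENST00000507603.1 of EREG had 30.9 reads with ASC and 10.5 with the control vector, with a log2 ratio of reads of 1.63 (95% interval 0.56 to 2.82). ENST00000482211.2 of HBEGF had 22.2 reads with ASC and 43.2 with the control vector. Its log2 ratio of reads was -0.97 (95% interval -1.78 to -0.20), below 0 where that of the coding HBEGF transcript was above it. Both stayed below 1 RPKM in each library, where intervals that exclude equality were common among all transcripts.

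The genes of 4 ligands lie near each other on chromosome 4 in the order EPGN, EREG, AREG and BTC, and chemokine genes of the CXCL family lie before them. Relative to the AREG start, EPGN starts at -136.7 kb and BTC at 299.6 kb. Within 1500 kb of the AREG start, 14 listed genes were compared, 12 of them outside the ligand group. On the log2(RPKM + 1) scale, 7 of those 12 had a log2 ratio above 0, 1 was at least 2-fold higher and the median was 0.17. CXCL1, CXCL8 and CXCL2, which encode chemokines that attract neutrophils, had log2 ratios of 1.13, 0.86 and 0.68 on this scale. They were low, with CXCL1 at 3.50 RPKM with ASC and 1.05 RPKM with the control vector. Their log2 ratios of reads were 1.75, 1.44 and 1.18, all past 2-fold, beside 1.14 for AREG. The counting intervals were 1.23 to 2.31 for CXCL1, 0.99 to 1.90 for CXCL8 and 0.63 to 1.77 for CXCL2. Those of CXCL8 and CXCL2 include the AREG value, and that of CXCL1 lies above it. MTHFD2L, which encodes a mitochondrial folate enzyme, lies between the chemokine and ligand genes and stood at 3.49 RPKM with ASC and 3.69 RPKM with the control vector, a log2 ratio of -0.06. Not every gene of the interval was higher with ASC, and a shared cause within it was not tested. After subtraction of the median of the 50 nearest compared genes, which was 0.11, AREG had a log2 ratio of 1.03 and EREG of 0.72.

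**Figure D3:**
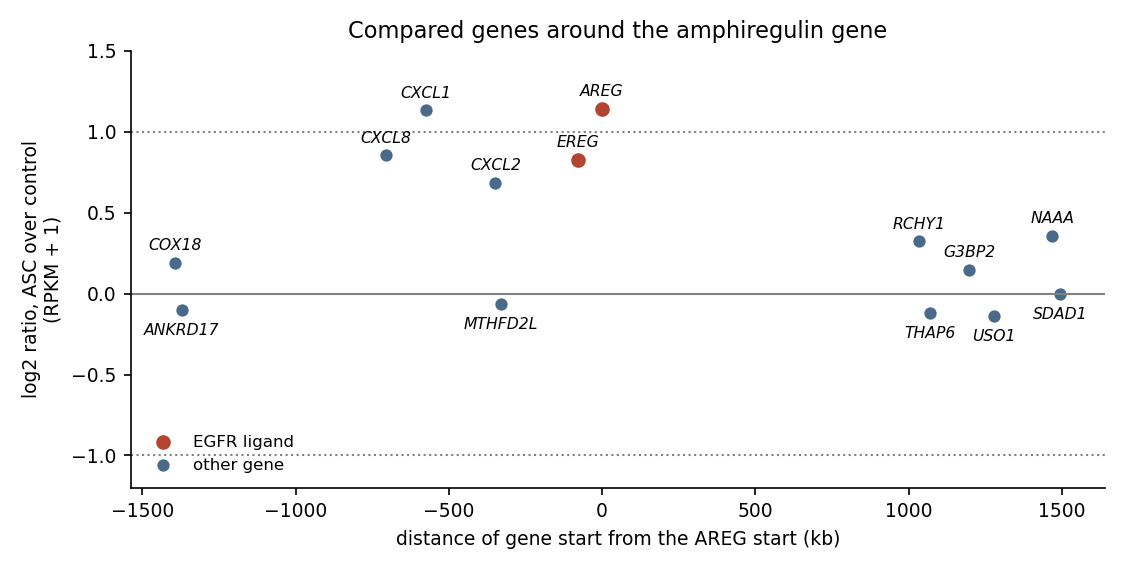
Log2 ratio of ASC over control on the log2(RPKM + 1) scale for compared genes within 1500 kb of the AREG start, against the distance of each gene's start from it. AREG at 1.14, EREG at 0.83 and the CXCL genes at 0.68 to 1.13 lie above the other genes shown, with MTHFD2L at -0.06 between them.

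The receptor genes were near equal in both libraries. EGFR (ENSG00000146648.17, plus strand, chr7:55019021-55211628), the receptor of all 6 ligands, stood at 106.3 RPKM with ASC and 118.6 RPKM with the control vector, from 35228.4 and 39275.5 reads. Its log2 ratio was -0.16, and its ratio of reads was 0.893 (95% interval 0.880 to 0.906). That interval excludes equality, but 76.7% of compared genes ranked above EGFR, well inside the range of genes in general. The 50 nearest compared genes on chromosome 7 had a median of -0.11, and relative to them EGFR had -0.05. ERBB2 (ENSG00000141736.13, plus strand, chr17:39687914-39730426) stood at 15.2 RPKM with ASC and 16.0 RPKM with the control vector, with 2204 and 2312 reads. ERBB3 (ENSG00000065361.15, plus strand, chr12:56076799-56103505) stood at 7.57 RPKM with ASC and 7.14 RPKM with the control vector, with 1086 and 1069 reads. Their log2 ratios were -0.08 and 0.07, and the 95% intervals of both ratios of reads, 0.895 to 1.01 and 0.929 to 1.10, include equality. These intervals exclude a 1.5-fold difference as far as counting error goes.

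Per length, EGFR was the most abundant receptor gene, at 7.02 times ERBB2 and 14.0 times ERBB3 with ASC, and 7.41 times ERBB2 and 16.6 times ERBB3 with the control vector. The order of AREG and EGFR was the same in both libraries, but the gap differed. AREG stood at 2.58 times EGFR with ASC and 1.04 times EGFR with the control vector. ERRFI1 stood at 1.28 times EGFR with ASC and 0.686 times EGFR with the control vector, so this pair changed order. With 1 library each, the spread of these quotients is not known.

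ERRFI1 (ENSG00000116285.12, minus strand, chr1:8004404-8026308) encodes MIG6, a cytoplasmic protein that binds the active kinase domain of EGFR and its relatives and blocks it, and whose gene is switched on by the same signalling. It stood at 135.6 RPKM with ASC and 81.3 RPKM with the control vector, from 14268.3 and 8476.8 reads. The ratio of reads was 1.68-fold (95% interval 1.63 to 1.72) and the log2 ratio was 0.73, with 1.38% of compared genes above it. Its full coding transcript, ENST00000377482.9, stood at 119.0 RPKM with ASC and 68.2 RPKM with the control vector, a log2 ratio of 0.79. The second ERRFI1 transcript, ENST00000467067.1, has a coding sequence 17.1% as long as the longest and 911 bases outside the exons of the main one. It stood at 13.5 RPKM with ASC and 11.4 RPKM with the control vector, a log2 ratio of 0.22. Its share of the ERRFI1 reads was 7.07% with ASC and 10.1% with the control vector. ENST00000487559.1, annotated as subject to nonsense-mediated decay, stood at 2.81 RPKM with ASC and 1.68 RPKM with the control vector.

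Of the 78 transcripts, 18 reached 1 RPKM in either library and were compared. The 6 compared ligand transcripts and the 3 of ERRFI1 had log2 ratios above 0, while 7 of the 9 receptor transcripts lay below 0. At least 2-fold higher was 1 of the 18, the main AREG transcript, beside 1.26% of all 34527 compared transcripts. At least 2-fold lower was also 1, a short EGFR transcript, beside 1.06%. The median over the 18 was 0.23, and over all compared transcripts it was 0.00.

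**Figure D4:**
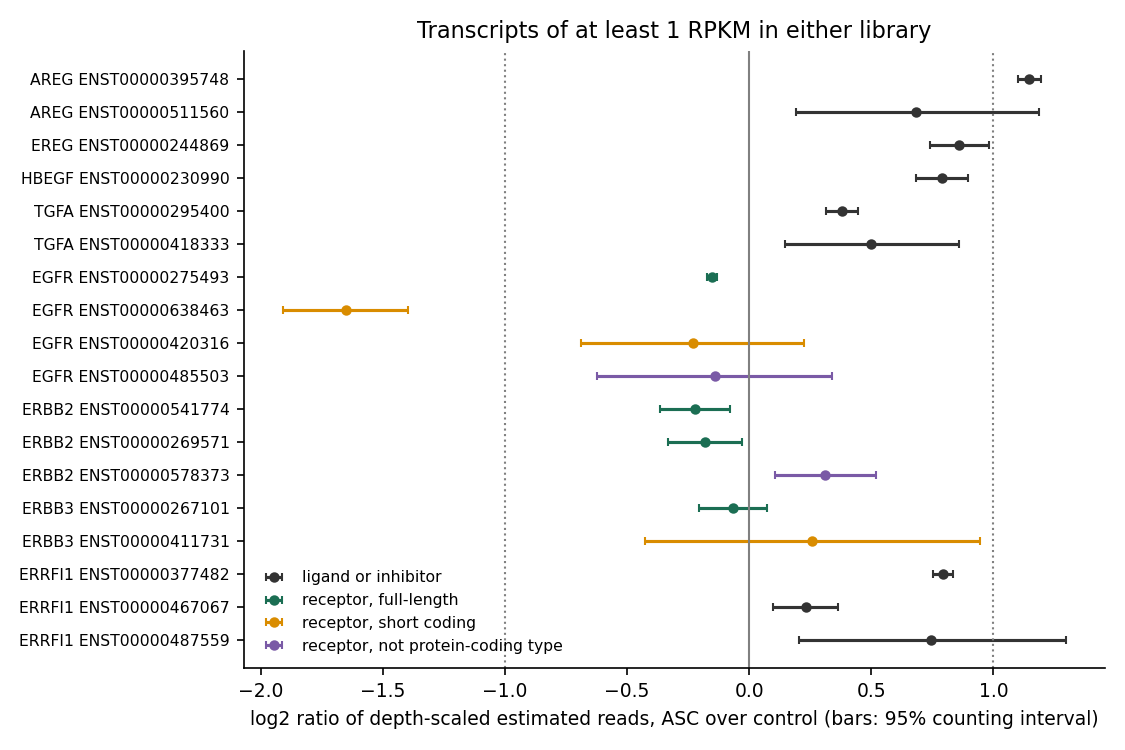
Log2 ratio of estimated reads scaled to depth, ASC over control, for the 18 transcripts of at least 1 RPKM in either library, with exact 95% intervals of counting error. Ligand and ERRFI1 transcripts lie to the right of 0, full-length receptor transcripts lie slightly to its left, and the short EGFR transcript ENST00000638463 lies at -1.65, apart from the rest.

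Receptor transcripts were called full-length when their annotated coding sequence was at least 95% as long as the longest of the gene, short coding when shorter, and of other types when GENCODE gives them no protein-coding type. Full-length transcripts held 93.7% of the EGFR RPKM with ASC and 92.6% with the control vector. Short coding transcripts of EGFR held 2.53% with ASC and 4.08% with the control vector, at 2.69 and 4.84 RPKM. In reads the short coding share was 0.802% with ASC (95% interval 0.710% to 0.899%) and 1.61% with the control vector (95% interval 1.49% to 1.74%).

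The lower short coding share rested on 1 transcript. ENST00000638463.1 of EGFR stood at 1.002 RPKM with ASC and 3.12 RPKM with the control vector, with 169.2 and 528.2 reads. The log2 ratio of reads was -1.65 (95% interval -1.91 to -1.40), and the ratio on the log2(RPKM + 1) scale was -1.04. In GENCODE this transcript begins inside the gene with a 10-base exon at chr7:55152337-55152346 and continues with exon 6 of the full-length transcript. Its coding sequence is 38.3% as long as that of the full-length transcript, and those 10 bases are all that it holds outside the full-length exons. The first 40 bases of the short transcript, and the matching stretch of the full-length transcript ENST00000275493.6 across the junction of its exons 5 and 6, are printed to show how little tells them apart. Both run 5′ to 3′ from GENCODE release 29, and capitals mark the last 10 bases before the shared exon.
Short EGFR transcript: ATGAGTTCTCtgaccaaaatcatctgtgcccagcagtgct
Full-length EGFR transcript: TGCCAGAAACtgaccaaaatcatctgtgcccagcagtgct
Of the 4735 bases of ENST00000638463.1 all but those 10 lie in exons of ENST00000275493.6, so few reads could be told apart by sequence. The interval above does not cover the error of dividing them. The full-length transcript stood at 99.4 RPKM with ASC and 109.5 RPKM with the control vector, a log2 ratio of -0.14.

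Some EGFR transcripts end early and encode secreted forms of the extracellular part. Of these, ENST00000342916.7, with 628 codons, had almost no reads in either library. ENST00000420316.6 and ENST00000344576.6 had ratios on opposite sides of 0, both from few reads. ENST00000420316.6, with a coding sequence of 405 codons and 186 bases outside the full-length exons, stood at 1.38 RPKM with ASC and 1.61 RPKM with the control vector. Its 77.1 and 90.3 reads gave a log2 ratio of -0.23 (95% interval -0.69 to 0.22). ENST00000344576.6, of 705 codons and with 807 bases outside the full-length exons, was rarer, with 19.3 reads with ASC and 2.81 with the control vector. From the rounded reads its log2 ratio was 2.66 (95% interval 0.89 to 5.06), and it was singled out after its values were seen. At 0.189 RPKM with ASC it was a small fraction of EGFR expression. ENST00000485503.1, an EGFR transcript annotated as retaining an intron, stood at 3.06 RPKM with ASC and 3.31 RPKM with the control vector. Reads of EGFR-AS1, an antisense gene within EGFR, numbered 3 with ASC and 12 with the control vector, and the library kit does not mark strand.

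ERBB2 reads were divided over more transcripts. Full-length transcripts held 65.4% of the ERBB2 RPKM with ASC and 69.1% with the control vector. In reads these shares were 71.5% (95% interval 69.5% to 73.3%) with ASC and 76.3% (95% interval 74.5% to 78.0%) with the control vector. The full-length ENST00000541774.5 stood at 4.81 RPKM with ASC and 5.57 RPKM with the control vector. ENST00000269571.9, the other full-length one compared, stood at 4.09 RPKM with ASC and 4.60 RPKM with the control vector. ENST00000578373.5, annotated as subject to nonsense-mediated decay, went the other way, at 2.72 RPKM with ASC and 2.18 RPKM with the control vector. Its log2 ratio of reads was 0.31 (95% interval 0.11 to 0.52), and its share of the ERBB2 reads was 19.9% with ASC and 15.2% with the control vector. Of its 4523 bases all but 295 lie in exons of ENST00000541774.5. This share and the full-length shares thus depend on how reads were divided, an error that the intervals do not cover. The genes MIEN1 and PGAP3, on the opposite strand, overlap ERBB2 in the annotation. MIEN1 stood at 24.2 RPKM with ASC and 24.1 RPKM with the control vector, and PGAP3 at 2.21 and 2.28 RPKM with ASC and with the control vector. Their part in the ERBB2 values was not tested.

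The transcript classes of ERBB3 held similar shares in both libraries. Full-length transcripts held 58.3% of the ERBB3 RPKM with ASC and 60.6% with the control vector, and 83.1% and 84.3% of its reads. The full-length ENST00000267101.7 stood at 3.89 RPKM with ASC and 4.04 RPKM with the control vector. ENST00000411731.6, which ends after 183 codons and encodes a secreted form, stood at 1.14 RPKM with ASC and 0.961 RPKM with the control vector, with 41.6 and 35.3 reads. Its interval of the log2 ratio of reads, -0.43 to 0.95, includes 0.

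**Figure D5:**
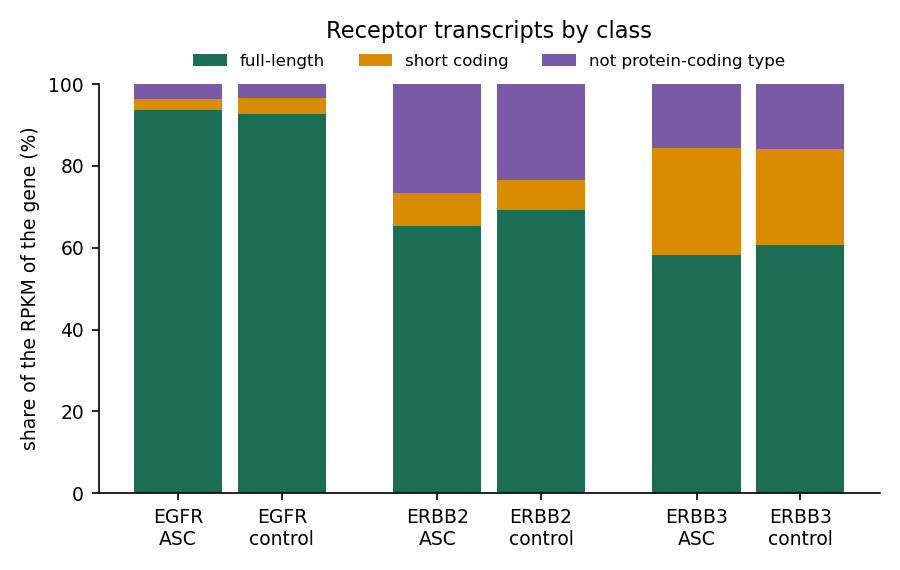
Share of the RPKM of each receptor gene in full-length, short coding and other transcripts, with ASC (left of each pair) and with the control vector (right). EGFR is nearly all full-length in both, at 93.7% and 92.6%, and ERBB2 and ERBB3 hold larger shares of the other classes.

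Of the 60 transcripts below 1 RPKM, 23 had at least 10 reads in either library, and for 8 of these the counting interval excluded equality, 5 higher and 3 lower with ASC. Among all 26569 listed transcripts below 1 RPKM with at least 10 reads, the interval excluded equality for 36.7%, higher for 17.1% and lower for 19.6%. The count of 8 is thus near the background and is no result about these genes. Beyond those already given, ENST00000584450.5 of ERBB2 had 49.8 reads with ASC and 18.6 with the control vector. ENST00000415288.6 of ERBB3, which is full-length by the coding rule, had 80.1 reads with ASC and 44.6 with the control vector. The remaining 3 belonged to ERBB2, ENST00000584601.5 higher and ENST00000445658.6 and ENST00000578630.1 lower. Such small numbers are sensitive to how reads are divided among overlapping transcripts.

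Most further genes of the pathway lay closer to equality. Of 100 further genes in 7 lists, 93 were compared. On the log2(RPKM + 1) scale none was 2-fold higher or lower, where 0.617% and 0.265% of all compared genes were. At 1.5-fold, 2 were higher, against 2.38% of all genes, and none was lower, against 1.81%. Their median log2 ratio was 0.09. Of 6 genes for other ligands of the family and ERBB4, 3 were listed and 1 was compared. This was NRG1, which encodes neuregulin 1, at 34.7 RPKM with ASC and 32.1 RPKM with the control vector, a log2 ratio of 0.11 that was -0.15 in reads. EGF itself had 1 read in each library. Of 13 compared genes of ligand shedding and trafficking, 8 lay above 0 and the median was 0.10. ADAM17, known from mouse cells as the main sheddase of AREG, EREG, HBEGF and TGFA, stood at 23.3 RPKM with ASC and 21.2 RPKM with the control vector. ADAM10, which cuts BTC in mouse cells, stood at 50.5 RPKM with ASC and 46.9 RPKM with the control vector. The metalloproteinase gene ADAM12 had the highest ratio of that list, 0.94, at 3.31 RPKM with ASC and 1.25 RPKM with the control vector. ADAM9, another metalloproteinase gene, had a log2 ratio of 0.45, and CNIH4, of the cornichon family of cargo receptors, had 0.23.

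Downstream of the receptors the values lay on both sides of 0. Of 19 adaptor and RAS to ERK genes, 12 lay above 0 and 7 below, between -0.29 for SOS1 and 0.28 for SOS2, which both encode exchange factors for RAS. RASA1, a brake on RAS, had 0.28. Of 11 PI3K and AKT genes, 5 lay above 0 and 6 below. PIK3CA, a catalytic subunit gene of PI3K, had -0.54, which was -0.21 in reads. PIK3R1, a regulatory subunit gene, had -0.29, which was -0.68 in reads. Of 17 genes that the pathway switches on, 12 lay above 0 and 5 below, with a median of 0.08. CCND1, which encodes cyclin D1, had a log2 ratio of 0.47, IER3 of 0.47 and FOSL1 of 0.43. The lowest were JUNB at -0.29 and FOS at -0.26, and EGR1 had 0.08.

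Each of the other receptor inhibitors had a lower ratio than ERRFI1. Of 16 inhibitor and ubiquitin ligase genes, 11 lay above 0 and 5 below, with a median of 0.10 and none past 1.5-fold on this scale. LRIG1, a membrane protein that promotes receptor degradation, stood at 2.38 RPKM with ASC and 1.48 RPKM with the control vector. Its relative LRIG3 stood at 4.72 RPKM with ASC and 6.91 RPKM with the control vector. SH3KBP1, which links the ubiquitin ligase CBL to endocytosis, had a log2 ratio of 0.39, and CBL itself had 0.15. Of 16 endocytosis and recycling genes, 13 lay above 0, led by EHD1, a recycling ATPase, at 0.54, TSG101 at 0.24 and AP2A1 at 0.23.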

How the data were processed

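RNA was measured in 2 libraries, 1 per group, from poly(A) RNA with a TruSeq RNA v2 kit, per the labels. The authors deposited 2 values a transcript, estimated counts (fractional, with no depth scaling) and RPKM, per the file headers. The submitters' processing notes name hg38. Aligner, quantifier and annotation release were not given in the sources used here. Identifiers were matched to GENCODE release 29. Its starts were the deposited ones, and its ends, which are printed, lay 1 base before the deposited stops. All 78 transcripts of the 10 genes had the same version there. Gene names turned into dates were restored through the identifier for 284 of 285 lines.

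RPKM was summed per gene, with a pseudocount of 1 RPKM and a minimum of 1 RPKM in either library. Intervals are exact (Clopper-Pearson) at 95% from rounded estimated counts, and cover counting error only. A count of 0 allows up to 3 reads. The calculation was tested on simulated counts with counting error only. That simulation held no error of dividing reads among transcripts and no spread between cultures. Sequences are from RefSeq (GRCh38.p14) and GENCODE.

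All members, every transcript of at least 1 RPKM, genes of each list past 2-fold and up to 3 of its largest ratios are named, except 1 gene that is not reported here. Genes such as ADAM17 and CBL are named for their role. Members and lists were chosen with earlier results of these data known. Alternatives were pseudocounts of 0.1 and 3, no filter or 5 RPKM, TMM scaling with edgeR 4.0.16, median centring, CPM, the highest transcript, subtraction of 50 neighbours, a 1.5-fold threshold, read shares and an 80% coding minimum. Python 3.11.15, pandas 2.3.3, numpy 2.4.6, scipy 1.17.1 and R 4.3.3 were used.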

Additional observations from a re-analysis of the deposited data

How the results depend on the processing

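AREG was the only one of the 10 genes at least 2-fold higher under each of the 9 alternatives that kept this threshold, with a log2 ratio between 1.03 and 1.15, and none was 2-fold lower. At 1.5-fold 4 were higher. EREG ranged from 0.67 to 0.93, HBEGF from 0.62 to 0.76, TGFA from 0.36 to 0.64, ERRFI1 from 0.67 to 0.79 and EGFR from -0.17 to -0.05. ERBB3 turned to -0.04 with the highest transcript, where the sum gives 0.07. The median over compared members was 0.33 with no filter, which adds BTC and EPGN, and 0.38 with CPM, which adds BTC. The main AREG transcript stayed past 2-fold with pseudocounts of 0.1 and 3, and no transcript was 2-fold lower with 3.

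Over all genes, the higher and lower counts were 160 and 127 with a pseudocount of 0.1, 34 and 9 with 3, 121 and 65 with CPM, and 297 and 226 at 1.5-fold. With a filter at 5 RPKM, 17 were lower. Full-length shares in reads, in the ASC and control libraries, were 98.9% and 98.2% for EGFR, 71.5% and 76.3% for ERBB2, and 83.1% and 84.3% for ERBB3. With an 80% coding minimum the full-length shares of RPKM in the ASC library were 93.9% for EGFR and 67.9% for ERBB2. The 95% minimum gave 93.7% and 65.4%. No paired analysis was possible because each group has 1 library. Depth limits BTC, EPGN and the transcripts below 1 RPKM, and with 1 library per group the spread between cultures is unknown.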

Other observations

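NRG1, which encodes neuregulin 1, a ligand of ERBB3, differed in sign between the 2 units deposited. Summed over transcripts it stood at 34.7 RPKM with ASC and 32.1 RPKM with the control vector, but its reads numbered 2383 with ASC and 2624 with the control vector. Of its 14 listed transcripts, 5 reached 1 RPKM, and their ratios lay on both sides of equality. The shortest of these, ENST00000631040.2 of 623 bases, stood at 17.2 RPKM with ASC and 13.0 RPKM with the control vector. ENST00000523079.5 stood at 7.37 RPKM with ASC and 5.11 RPKM with the control vector. The longest, ENST00000356819.7 of 5931 bases, stood at 4.85 RPKM with ASC and 6.67 RPKM with the control vector, with a log2 ratio of reads of -0.47 (95% interval -0.59 to -0.35). ENST00000287842.7 and ENST00000521670.5 were also lower with ASC, at 3.06 against 4.28 RPKM and 2.02 against 2.57 RPKM with the control vector.

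PIK3CA, which encodes a catalytic subunit of PI3K, shows the same dependence on short transcripts. Its coding transcript ENST00000263967.3 stood at 3.604 RPKM with ASC and 3.97 RPKM with the control vector, a log2 ratio of reads of -0.15. ENST00000462255.1, of 746 bases and annotated as retaining an intron, stood at 1.10 RPKM with ASC and 3.34 RPKM with the control vector, with 29.1 and 89.2 reads. The log2 ratio of the gene, -0.54, thus rests largely on this short transcript, and in reads of the whole gene it was -0.21. Both genes are described here after their values were seen.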
